A study of Homo sapiens with 8 samples.

Results

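The genes described here are the splicing factors that carry a U2AF homology motif (UHM), together with SF1, a protein to which a UHM binds. They are U2AF1, U2AF2, U2AF1L4, ZRSR2, RBM39, RBM23, RBM17, PUF60, HTATSF1 and SF1, chosen by their symbols. All 10 were found among the 17912 genes of the files. RNA was sequenced from the human cell line NKM-1, an established line of myeloid leukemia cells labelled as wild type. The cells had been kept for 48 h in 30 uM SF153, or in DMSO alone as the solvent control. The series title speaks of an inhibitor of UHM proteins, and SF153 is the compound that the labels name. Each treatment had 4 libraries, 2 from each of 2 batches, and a name such as SF153 2.1 means library 1 of batch 2 under SF153. The labels do not say that libraries of one treatment and batch came from separate cultures. Their names share a leading number and carry the letter A or B, so a treatment may hold only 2 separate samples. The p-values measure how far these libraries spread, and that spread may be technical. Each n below counts libraries. All libraries come from a single cell line at a single dose and time.

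A UHM is a variant of the RNA recognition motif that binds a short tryptophan-containing peptide in another protein, the UHM ligand motif, instead of RNA. Ligand motifs are found in SF1, U2AF2 and SF3B1, so UHM proteins join the factors that recognize the end of an intron to one another and to the U2 snRNP, the particle that pairs with the branch point. At the start of this process SF1 binds the branch point, U2AF2 the polypyrimidine tract and U2AF1 the AG at the 3′ splice site. The U2 snRNP with SF3B1 then takes the place of SF1. Mutations of U2AF1, ZRSR2 and SF3B1 are known from myeloid neoplasms.

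The values are a signal per gene, which the authors' file labels describe by both CPM and TPM. Whether they are scaled for transcript length, as TPM are and CPM are not, is not stated. Levels, orders and shares set between genes below hold only if they are, while the comparison of 1 gene between treatments does not need it. The read depth is unknown. Each DMSO library had 15080 to 15217 genes at a signal of 1 or more, and each SF153 library had 15346 to 15445. Both pairs of SF153 libraries differed from the rest in composition. In batch 1 the small nuclear RNA RN7SK held 18.7% and 18.2% of the signal and 11.4% to 13.9% in the other 6 libraries. Genes outside the mitochondrial and small RNA classes held 43.8% and 44.3% in that pair and 49.8% to 56.4% elsewhere. In the SF153 pair of batch 2, genes of the mitochondrial genome held 16.8% of the signal and 9.17% to 9.92% elsewhere. The total signal of this pair was 828381 and 835840, and that of the other libraries was 990815 to 1027119. All 9 myeloid markers examined had a mean signal of at least 1, with a summed signal of 1485 to 1642 in DMSO and 1078 to 1311 in SF153. They did not move together. MPO, LYZ, CEBPA and SPI1 were lower in every SF153 library than in any DMSO library, and CD33 and ITGAM were higher. PTPRC, CSF3R and CD68 overlapped. MPO, the largest, had 717 to 763 in DMSO and 420 to 543 in SF153. Of 4 T and NK cell markers only NCAM1 was in the files, at 1.63 or below in every library, and no erythroid or megakaryocytic marker was. CD79A, the only B cell marker in the files of 3 examined, had 24.7 to 29.4 in DMSO and 3.39 to 10.1 in SF153, and PECAM1, the only one of 5 epithelial, stromal and endothelial markers, had 9.52 to 17.8 and 15.7 to 24.2. The part of these differences in the results below was not tested.

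Several of the genes have close relatives, and the sequences decide how well reads can be told apart. The pairs U2AF1 with U2AF1L4 and RBM39 with RBM23 are paralogs that both occur in the list. The most alike stretch of 60 coding bases without a gap in each pair is shown, read 5′ to 3′ on the coding strand from GENCODE release 29 transcripts on GRCh38, with the bases that differ within the pair in capitals. The stretches lie at chr21:43094527-43094677 for U2AF1, chr19:35743868-35744034 for U2AF1L4, chr20:35721845-35724596 for RBM39 and chr14:22904980-22905120 for RBM23, all on the minus strand. Each spans an exon junction, so the genomic interval is longer than the sequence.
U2AF1: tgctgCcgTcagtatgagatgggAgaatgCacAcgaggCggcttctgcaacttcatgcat
U2AF1L4: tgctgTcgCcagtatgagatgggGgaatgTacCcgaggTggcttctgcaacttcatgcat
RBM39: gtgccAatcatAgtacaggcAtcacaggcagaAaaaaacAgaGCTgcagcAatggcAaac
RBM23: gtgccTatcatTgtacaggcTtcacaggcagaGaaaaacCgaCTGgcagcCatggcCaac
Even in these stretches the paralogs differed at 6 of 60 bases for U2AF1 and U2AF1L4 and at 10 of 60 for RBM39 and RBM23, and the longest identical runs were 21 and 11 bases. A read of 31 bases or more therefore separates the members of each pair here. U2AF1 itself is another case. Of its 932 stretches of 31 bases, 903 (96.9%) also occur in transcripts of U2AF1L5, a near-identical copy of U2AF1. The files list this copy by its Ensembl identifier, without a symbol and with the gene class artifact. Whether its signal comes from a gene other than U2AF1 was not tested. U2AF2, PUF60 and SF1 shared no stretch of 31 bases with another gene, and HTATSF1 shared 0.067% of its stretches, none of them with a gene in the files. RBM17 shared 5.24%, RBM23 5.79% and RBM39 10.6%. ZRSR2 shared 37.4%, all of it with its retrocopy ZRSR2P1 and an annotated SRP19 transcript. U2AF1L4 shared 52.9% with AD000671.2, an annotated readthrough gene on the same strand whose signal was 1.22 or below in every library.

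By limma on all 8 libraries, SF153 was accompanied by a lower signal of HTATSF1, U2AF1, PUF60 and RBM17 and by a higher signal of RBM39. The signal is 1 value per gene from total RNA. It does not tell spliced, unspliced and differently spliced transcripts of a gene apart. HTATSF1 changed most, to 34.9% of its DMSO mean, while PUF60 and U2AF1 stood at 74.0% and 71.5%. U2AF2, SF1, RBM23, ZRSR2 and U2AF1L4 did not pass the threshold, an adjusted p below 0.05. The adjustment ran over the 15542 genes whose mean signal reached 1, which all 10 genes did. Of the 10, 1 was called higher and 4 lower, and over all genes tested 13.0% were called higher and 24.3% lower (37.2% in all). The median log2 difference of the 10 genes was -0.06, and that of all tested genes was -0.03. The values of the 2 treatments did not overlap for 4 of the 10, RBM39 being higher and HTATSF1, U2AF1 and PUF60 lower, against 36.8% of all genes. In RNA from whole cultures, fewer cells of a kind and less RNA per cell cannot be told apart.

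**Figure D1:**
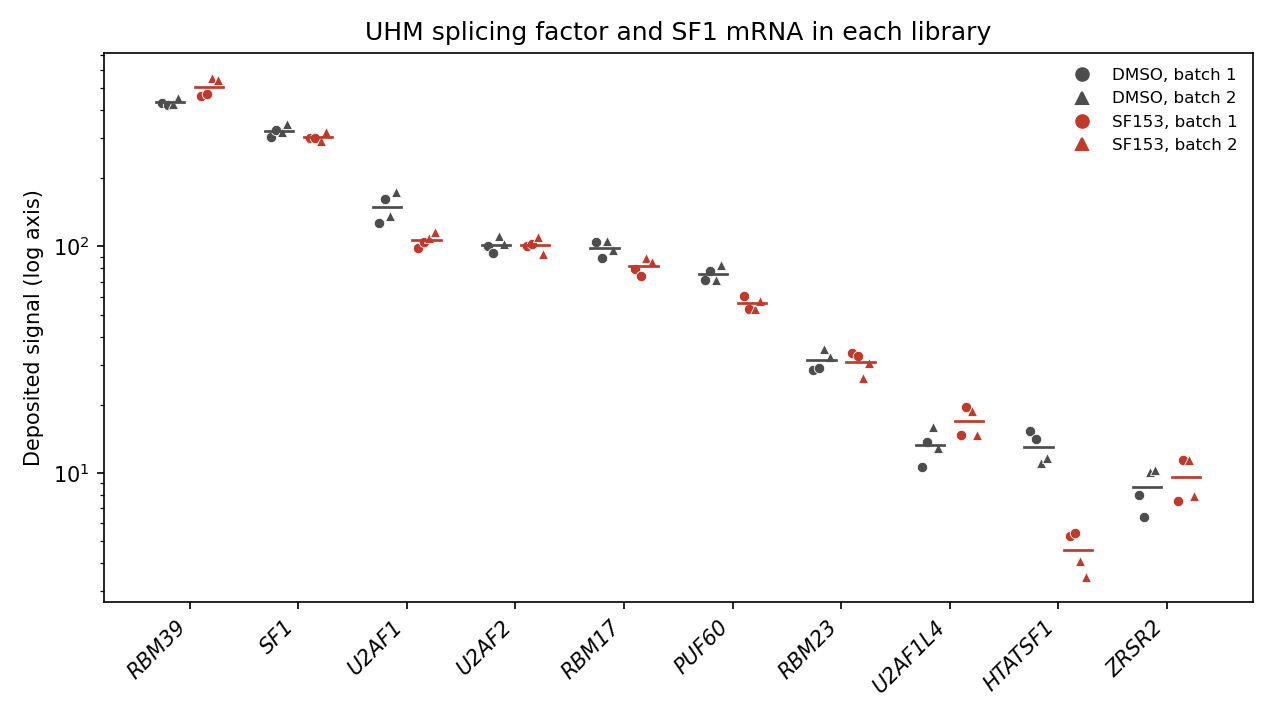
Signal of the 10 genes in each of the 8 libraries (log axis), ordered by the DMSO mean; grey points are DMSO, red points SF153, circles batch 1, triangles batch 2 and bars group means. HTATSF1 shows the widest gap between treatments, and RBM39 is the highest gene in both.

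U2AF1, which reads the AG at the 3′ splice site and is encoded on chromosome 21 (43092956 to 43107587), had a signal of 127.3, 162.1, 135.7 and 174.3 in the DMSO libraries 1.1, 1.2, 2.1 and 2.2. In the SF153 libraries in the same order it had 98.6, 104.7, 109.5 and 115.8. Every SF153 library lay below every DMSO library, and the DMSO values spread more widely. The means were 149.8 ± 22.0 and 107.1 ± 7.26 (SD, n = 4 each), and U2AF1 fell by 0.47 ± 0.11 (SE) on the log2(signal + 1) scale, with a limma adjusted p of 0.00685.

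Most U2AF1 reads could also be assigned to its copy. The copy U2AF1L5 had 69.9, 33.3, 24.9 and 0 in DMSO and 13.4, 8.31, 0 and 3.35 in SF153. It was thus highest in DMSO 1.1, the DMSO library in which U2AF1 was lowest, and was listed at 0 in DMSO 2.2, where U2AF1 was highest. The sum of both genes was 197.2, 195.4, 160.6 and 174.3 in DMSO and 111.99, 113.03, 109.5 and 119.1 in SF153. The sum varied less among libraries of a treatment than U2AF1 alone, with a coefficient of variation of 9.67% against 14.7% in DMSO and 3.60% against 6.78% in SF153. With the copy included U2AF1 fell by 0.67 ± 0.08 (limma adjusted p = 0.0002), and the sum in SF153 was 62.4% of that in DMSO. The sources used here do not say how reads were divided between the genes.

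**Figure D2:**
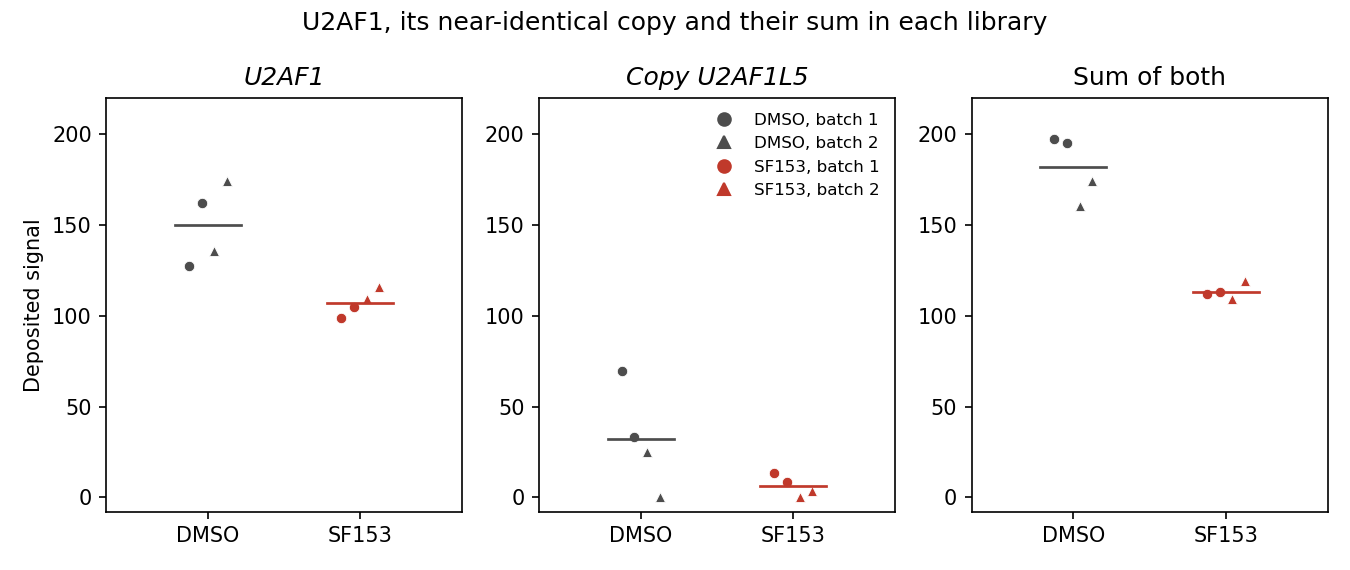
Signal of U2AF1, of its copy U2AF1L5 and of their sum in each library, with group means as bars (same colours and symbols by treatment and batch). The copy ranges from 0 to 69.9 among the DMSO libraries, and the 4 SF153 sums lie between 109.5 and 119.1, below all DMSO sums.

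U2AF2, the large U2AF subunit that binds the polypyrimidine tract, had 100.7, 93.7, 111.0 and 102.1 in DMSO and 100.1, 102.9, 110.5 and 93.1 in SF153. The libraries of both treatments covered the same range. Its log2 difference was -0.0029 with a 95% interval of -0.18 to 0.17 (limma adjusted p = 0.981). SF1, the branch point protein, had 305.6, 326.8, 321.5 and 346.1 in DMSO and 302.3, 300.1, 291.9 and 319.0 in SF153. Its SF153 values were the lower ones within each batch, although the treatments overlapped across batches, and the log2 difference was -0.10 with an interval of -0.24 to 0.05 (limma adjusted p = 0.268).

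U2AF1L4, a paralog of U2AF1 that can take its place beside U2AF2, had 10.7, 13.7, 16.0 and 12.9 in DMSO and 14.7, 19.6, 18.8 and 14.7 in SF153. Only DMSO 2.1 lay within the SF153 range, and the log2 difference of 0.33 had an interval of 0.01 to 0.65 and a limma adjusted p of 0.104. U2AF1L4 overlaps PSENEN on the opposite strand by 332 bases, and the signal of PSENEN was 32.8 in DMSO and 9.69 in SF153 (means). The library kit marks strand, but whether the counting used it is not given. ZRSR2, which recognizes the 3′ splice site in introns of the minor spliceosome, had 7.98, 6.37, 10.1 and 10.4 in DMSO and 7.55, 11.5, 11.4 and 7.87 in SF153. It varied as much within a treatment as between treatments, with a log2 difference of 0.12 and an interval of -0.30 to 0.54 (limma adjusted p = 0.649). Its retrocopy ZRSR2P1, which shares reads with it, had at most 0.69 in DMSO and between 1.35 and 2.19 in SF153.

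RBM39 is a U2AF2-related splicing factor and RBM23 its paralog, and both are known as targets of sulfonamide compounds that lead to their degradation. RBM39 had 430.9, 422.0, 426.7 and 451.2 in DMSO and 459.9, 473.4, 554.8 and 544.7 in SF153. The DMSO libraries lay close together, and the SF153 libraries split by batch, with batch 2 above batch 1. The means were 432.7 ± 12.9 and 508.2 ± 48.5, and RBM39 rose by 0.23 ± 0.08 on the log2 scale with a limma adjusted p of 0.0489. That call was lost when any of the 4 DMSO libraries, SF153 2.1 or SF153 2.2 was left out (0.18 to 0.25, limma adjusted p = 0.0667 to 0.123), and when libraries of one treatment and batch were averaged (limma adjusted p = 0.281). RBM23 had 28.6, 28.9, 35.4 and 32.6 in DMSO and 34.0, 32.8, 26.1 and 30.6 in SF153. Its SF153 values were the higher ones in batch 1 and the lower ones in batch 2, and the pooled log2 difference was -0.02 with an interval of -0.26 to 0.22 (limma adjusted p = 0.880).

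RBM17, PUF60 and HTATSF1 act around 3′ splice site recognition and the U2 snRNP. RBM17, a regulator of alternative splice site choice, had 105.2, 88.6, 105.5 and 96.2 in DMSO and 79.7, 73.7, 88.9 and 85.8 in SF153. The treatments touched only where SF153 2.1 exceeded DMSO 1.2 slightly. RBM17 fell by 0.27 ± 0.09 (limma adjusted p = 0.0355), and its call was lost without any of DMSO 1.1, 2.1, 2.2, SF153 1.1 or SF153 1.2, with differences of -0.28 to -0.22 and limma adjusted p-values of 0.0591 to 0.0927. Averaging by treatment and batch also ended it (limma adjusted p = 0.138).

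PUF60, which binds pyrimidine-rich tracts together with U2AF and is encoded on chromosome 8, had 71.2, 78.0, 70.9 and 83.0 in DMSO and 60.6, 53.1, 53.2 and 57.3 in SF153. The treatments were clearly apart, with a gap between the highest SF153 and the lowest DMSO library. PUF60 fell by 0.43 ± 0.08 (limma adjusted p = 0.00245), from 75.8 ± 5.82 to 56.1 ± 3.58, and kept its call when any library was left out.

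HTATSF1, whose UHM binds SF3B1 and which travels with the U2 snRNP, lies on chromosome X (136497079 to 136512346). It had 15.3, 14.2, 11.1 and 11.7 in DMSO and 5.28, 5.42, 4.10 and 3.46 in SF153. In each treatment both libraries of batch 2 lay below both of batch 1, and the highest SF153 value was below the lowest DMSO value. HTATSF1 fell by 1.34 ± 0.16 (limma adjusted p = 0.0002), and had log2 differences of -1.42 to -1.24 with any one library left out. Among the 17912 genes ranked by mean signal it moved from rank 7662 in DMSO to rank 11266 in SF153.

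Shares within the group do not depend on how a library is scaled. Of the summed signal of the 10 genes, RBM39 held 35.8%, 34.2%, 34.3% and 34.2% in the DMSO libraries and 39.6%, 40.2%, 43.7% and 42.8% in the SF153 libraries. RBM39 and SF1 together held 60.6% in DMSO and 66.5% in SF153. The share of U2AF1 was 10.6% to 13.2% in DMSO and 8.48% to 9.10% in SF153. PUF60 had 5.70% to 6.32% and then 4.19% to 5.21%, and RBM17 had 7.18% to 8.74% and then 6.26% to 7.0%. These shares did not overlap between treatments, nor did those of HTATSF1 at 0.89% to 1.27% and 0.27% to 0.46%. The shares of SF1, U2AF2, RBM23, U2AF1L4 and ZRSR2 overlapped. With the copy added to U2AF1, its share was 12.7% to 15.5% in DMSO and 8.63% to 9.53% in SF153, and that of RBM17 overlapped slightly. As shares add up to a whole, a higher share of RBM39 lowers the others.

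The summed signal of the 10 genes came to 1251 ± 49.6 for DMSO and to 1220 ± 58.6 for SF153 (SD, n = 4 each). As a percentage of the signal outside mitochondrial and small RNA genes it was 0.215% to 0.247% in DMSO and 0.260% to 0.305% in SF153, without overlap. The denominator held 52.1% to 56.4% of all signal in DMSO and 43.8% to 50.3% in SF153.

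In DMSO the order of levels was RBM39, SF1, U2AF1, U2AF2, RBM17, PUF60, RBM23, U2AF1L4, HTATSF1 and ZRSR2. Among neighbours in that order, U2AF2 overlapped RBM17 and U2AF1L4 overlapped HTATSF1, while the other neighbours were apart in their ranges. In SF153 HTATSF1 stood last, below ZRSR2 and without overlap with it, and U2AF1 overlapped U2AF2. The highest mean exceeded the lowest by 49.7-fold in DMSO and 111.3-fold in SF153. By rank among all 17912 genes, RBM39 moved from 170 to 54, SF1 from 227 to 116 and U2AF2 from 909 to 772. U2AF1 moved from 533 to 701 and PUF60 from 1418 to 1765. SF1 thus stood higher among all genes in SF153 although its signal did not.

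Ratios between genes of one library asked whether partners or paralogs kept their proportion. The exact two-sided permutation test relabelled the 4 against 4 libraries without regard to batch, and cannot give a p below 0.0286. It took the libraries of a treatment as separate. In all, 5 ratios were compared. U2AF1 relative to U2AF2, its partner in the heterodimer, was 1.26, 1.73, 1.22 and 1.71 in DMSO and 0.98, 1.02, 0.99 and 1.24 in SF153. The ranges touched at DMSO 2.1 and SF153 2.2, and the log2 difference of -0.47 ± 0.16 (SE) had an exact permutation p of 0.0571 (adjusted 0.0952). With the copy included the ratio was 1.96, 2.09, 1.45 and 1.71 in DMSO and 1.12, 1.10, 0.99 and 1.28 in SF153. These ranges were apart, with a log2 difference of -0.67 ± 0.14 and an exact permutation p of 0.0286 (adjusted 0.0476).

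U2AF1L4 relative to U2AF1 was 0.084, 0.085, 0.118 and 0.074 in DMSO and 0.149, 0.187, 0.171 and 0.127 in SF153, all 4 SF153 values being the higher ones. The log2 difference was 0.82 ± 0.19 (exact permutation p = 0.0286, adjusted 0.0714), and 1.03 ± 0.22 with the copy (exact permutation p = 0.0286, adjusted 0.0476). Both p-values are the smallest this test allows when batch is ignored, and relabelling within batches was not run. The adjusted value is lower with the copy because 1 more of the 5 ratios reached that smallest p. HTATSF1 relative to SF3B1, which carries the ligand motifs for its UHM, was 0.069, 0.063, 0.050 and 0.054 in DMSO and 0.023, 0.022, 0.017 and 0.015 in SF153. The treatments were far apart, with a log2 difference of -1.65 ± 0.19 (exact permutation p = 0.0286, adjusted 0.0714). This ratio was taken to SF3B1 alone, which stood at 108.9% of its DMSO mean. SF3B2, SF3B3, SF3B4, SF3B5 and SF3B6 stood at 54.1%, 66.8%, 33.3%, 35.3% and 41.4%, and HTATSF1 at 34.9%. SF1 relative to U2AF2 differed by -0.10 ± 0.10 (exact permutation p = 0.429) and RBM23 relative to RBM39 by -0.25 ± 0.16 (exact permutation p = 0.257, adjusted 0.321), and both overlapped between treatments.

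**Figure D3:**
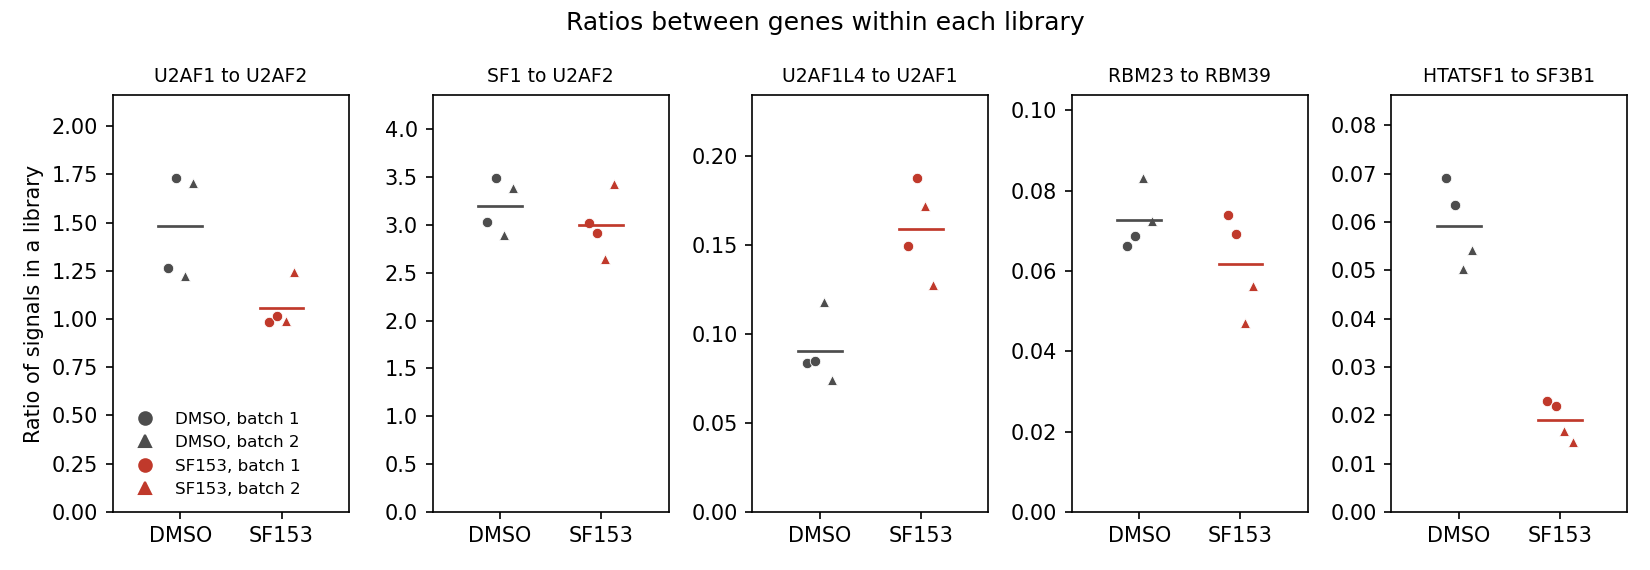
Ratio of the signals of 2 genes in each library for 5 pairs, with group means as bars; grey is DMSO, red SF153, circles batch 1 and triangles batch 2, and each vertical axis starts at 0. U2AF1L4 to U2AF1 and HTATSF1 to SF3B1 separate the treatments, U2AF1 to U2AF2 nearly does, and RBM23 to RBM39 is low only in the SF153 libraries of batch 2.

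The batches were then compared, in a limma fit with a mean for each treatment and batch. Its p-values rest on the spread between libraries of one treatment and batch, which may be technical. In batch 1, 0 of the 10 genes were called higher and 4 lower (7.42% and 17.4% of all genes, 24.9% in all), namely HTATSF1, U2AF1, PUF60 and RBM17. In batch 2, RBM39 was called higher and HTATSF1 and PUF60 lower, against 7.68% higher and 19.2% lower among all genes (26.9% in all). HTATSF1 fell by 1.31 in batch 1 and 1.38 in batch 2, with limma adjusted p-values of 0.000803 and 0.000467. PUF60 fell by 0.39 and 0.47 in the 2 batches. U2AF1 summed with its copy fell by 0.80 and 0.55 (limma adjusted p = 0.000184 and 0.000983), whereas U2AF1 alone had -0.45 in batch 2 with a limma adjusted p of 0.0540. The differences had the same sign in both batches for 7 of the 10 genes, and opposite signs for U2AF2, ZRSR2 and RBM23. How many of all genes kept their sign was not computed.

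The difference between the batches was tested itself as an interaction. None of the 10 genes was called by limma, against 1.15% of all genes. With U2AF1 taken alone, RBM39 and RBM23 had an unadjusted limma p below 0.05 (0.0218 and 0.0188). The share of all genes below that value was not computed. U2AF1 summed with its copy had an interaction of 0.25 ± 0.10 (limma unadjusted p = 0.0382, adjusted 0.448). RBM39 was 0.13 higher in batch 1 and 0.32 higher in batch 2 on the log2 scale, a change between batches of 0.20 ± 0.07 (limma adjusted p = 0.363). RBM23 differed by 0.21 in batch 1 but by -0.26 in batch 2, a change of -0.47 ± 0.16 (limma adjusted p = 0.345). Within DMSO none of the 10 genes was called between batches (0.0772% of all genes). With U2AF1 taken alone, none had an unadjusted limma p below 0.05, and the share of all genes was again not computed. U2AF1 summed with its copy differed by -0.23 ± 0.07 in batch 2 against batch 1 (limma unadjusted p = 0.0127, adjusted 0.473). Within SF153 RBM39 was called higher in batch 2 by 0.24 ± 0.05 (limma adjusted p = 0.0399), the only one of the 10, against 0.309% of all genes higher and 3.35% lower (3.66% in all). SF153 2.1 and 2.2 are the libraries with the lower total signal and the higher mitochondrial share, and the part of that in the RBM39 values was not tested.

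**Figure D4:**
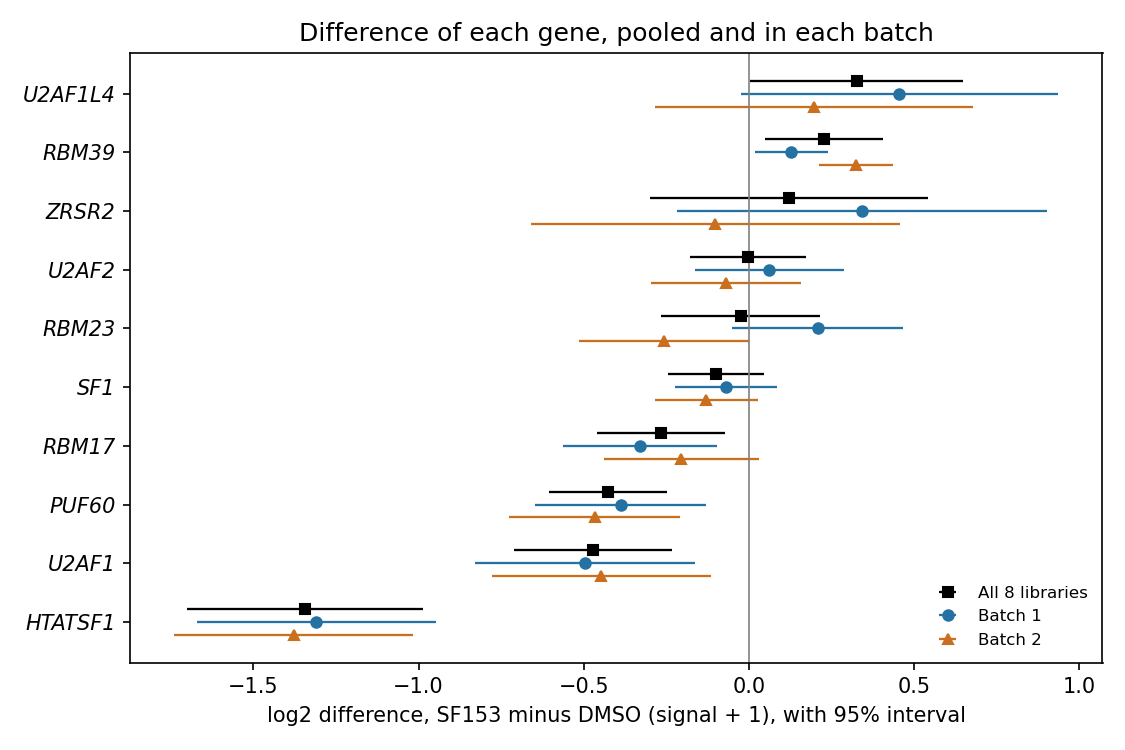
Log2 difference between SF153 and DMSO with its 95% interval from limma for each gene, over all 8 libraries (squares) and in batch 1 (circles) and batch 2 (triangles). HTATSF1, U2AF1 and PUF60 lie below 0 with their intervals in both batches, and RBM23 lies on opposite sides of 0 in the batches.

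Because the composition of the libraries differed with treatment, each difference was recomputed after 4 adjustments of the values. These were median-of-ratios scaling, quantile normalization, rescaling with mitochondrial and small RNA genes removed, and removal of the trend on transcript length and mean signal. HTATSF1 was called lower after every one, with log2 differences of -1.27, -1.26, -1.05 and -1.25 in that order. RBM39 was called higher after every one, at 0.31, 1.14, 0.57 and 0.66 in the same order. U2AF1 alone had -0.39, -0.26, -0.13 and -0.07, and only the first was called (limma adjusted p = 0.0175, then 0.0883, 0.387 and 0.677). Summed with its copy it had -0.59, -0.47, -0.33 and -0.27 and was called in all 4 (limma adjusted p = 0.000465, 0.0017, 0.00661 and 0.0322). These adjustments of the sum were chosen after the data had been seen.

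PUF60 had -0.35, -0.24, -0.09 and -0.14 and was called in the first and the second. RBM17 was not called in any, at -0.19, -0.10, 0.07 and -0.02. The adjustments moved the median of all genes from -0.03 to 0.04, 0.07, 0.26 and 0.06. Relative to the median of all genes, the difference of PUF60 was -0.39 with the authors' values and -0.38, -0.31, -0.35 and -0.20 after the adjustments. That of RBM17 was -0.23 and then -0.22, -0.17, -0.19 and -0.08. U2AF2, U2AF1L4, RBM23 and SF1 had no call with the authors' values and were each called higher after at least 1 of the 4 adjustments. In the order given, 1, 3, 5 and 4 of the 10 genes were called higher and 3, 2, 1 and 1 lower. Among all genes 17.0%, 20.8%, 35.0% and 21.7% were called higher and 20.9%, 18.1%, 13.8% and 18.7% lower.

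**Figure D5:**
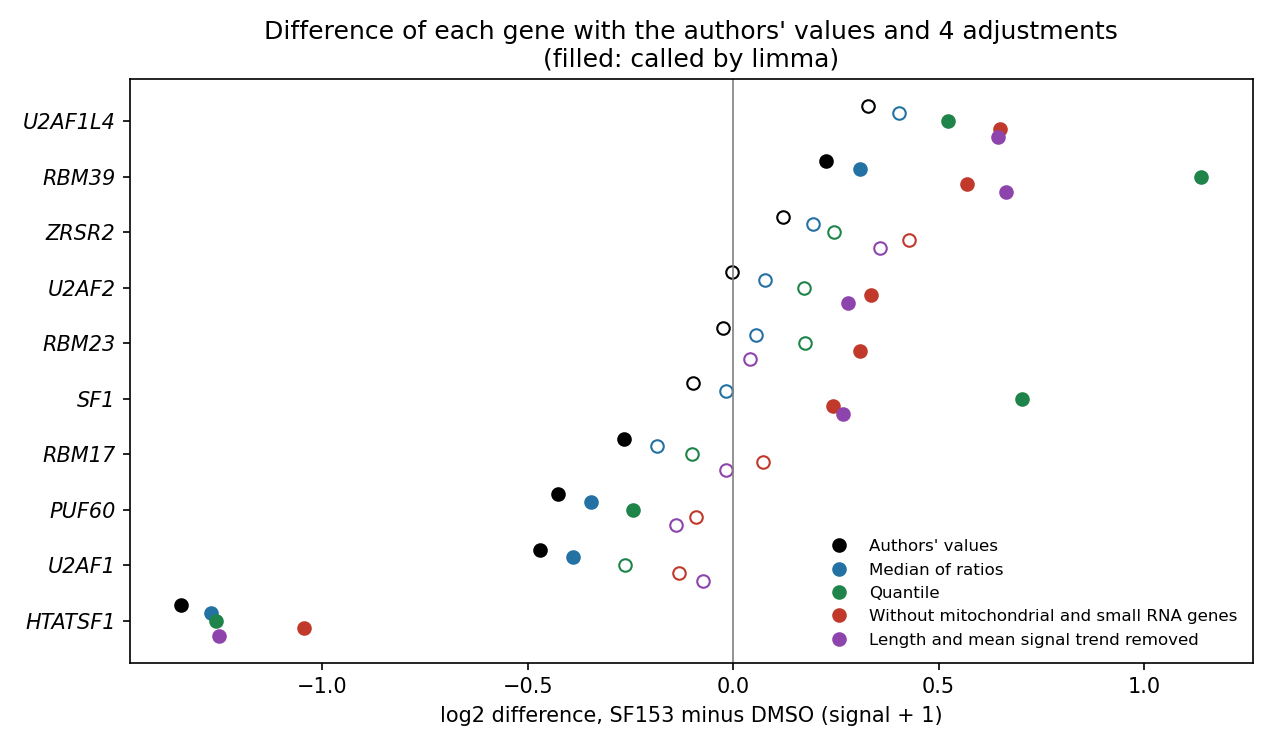
Log2 difference between SF153 and DMSO for each gene with the authors' values and after 4 adjustments, one colour each; filled points were called by limma at an adjusted p below 0.05. HTATSF1 is filled and far below 0 and RBM39 filled and above 0 under all 5, while U2AF2, RBM23, SF1 and RBM17 cross 0.

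The proteins that these factors work with were described from a list of 21 genes for the U2 snRNP and other branch point recognition factors. All 21 were tested, and 1 was called higher and 15 lower, beside 13.0% and 24.3% of all genes tested. Their median log2 difference was -0.49, beside -0.03. After the 4 adjustments, in the order above, 3, 4, 5 and 4 of the 21 were called higher, beside 17.0%, 20.8%, 35.0% and 21.7% of all genes. After the same adjustments 13, 9, 8 and 9 were called lower, beside 20.9%, 18.1%, 13.8% and 18.7%. SF3B1, the ligand of several UHMs, had 222.2, 223.4, 220.9 and 216.0 in DMSO and 230.0, 247.9, 245.7 and 237.9 in SF153. Every SF153 library was above every DMSO library by a small margin, with a log2 difference of 0.12 ± 0.06 (limma adjusted p = 0.126), and SF3B1 was called higher after each of the 4 adjustments (0.20 to 0.69). The U2 snRNP protein SNRPB2 had a log2 difference of -1.61 ± 0.19 and the SF3B subunits SF3B4 and SF3B5 fell as well, at -1.55 ± 0.23 and -1.45 ± 0.17, with limma adjusted p-values of 0.000206, 0.000637 and 0.000179, and all 3 were called after each adjustment too. DDX39B, the helicase also called UAP56 that binds U2AF2, rose by 0.32 ± 0.09 (limma adjusted p = 0.0247), a call that averaging by treatment and batch ended (0.145).

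Outside the list, UHMK1 and LEMD3 also carry a UHM, and ZRSR2P1 is a retrocopy of ZRSR2. The kinase UHMK1, which phosphorylates SF1, had 22.8, 23.5, 22.3 and 21.6 in DMSO and 17.5, 17.5, 16.8 and 16.0 in SF153. It fell by 0.39 ± 0.08 (limma adjusted p = 0.00343) but was not called after quantile normalization (-0.18), after the rescaling (-0.07) or with libraries averaged (limma adjusted p = 0.0610). LEMD3, a protein of the inner nuclear membrane, had a log2 difference of -0.14 (limma adjusted p = 0.388). The retrocopy ZRSR2P1 had 0.40, 0, 0.69 and 0 in DMSO and 2.05, 1.35, 2.19 and 1.43 in SF153. ZRSR2P1 reached the mean signal of 1 needed for testing only through its SF153 libraries (mean 1.75, and 0.27 in DMSO). Its call as higher, at 1.14 ± 0.26 on the log2 scale (limma adjusted p = 0.00678), therefore rests on that selection. It was not called in batch 1 or batch 2 taken alone (limma adjusted p = 0.0725 and 0.0852). Its low signal may be shared with ZRSR2 and with SRP19, an annotated transcript of which holds the same stretches.

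For the 3 genes with the largest differences, the genes with the most similar log2 signal over the 8 libraries were sought among the 10198 named genes whose mean signal reached 5. For HTATSF1 they were SLC25A3 (Pearson r = 0.997), GNG5 (0.997) and COX6C (0.997). SLC25A3, the mitochondrial phosphate carrier, had a mean signal of 416.7 in DMSO and 146.8 in SF153, and COX6C, a cytochrome oxidase subunit, had 190.7 and 55.5. For U2AF1 they were STK38 (0.981), EIF5 (0.976) and RUNX2 (0.970), and for PUF60 CSNK2A1 (0.981), EIF4A2 (0.978) and RECQL (0.977). The search took U2AF1 without its copy. The part of the division of reads between them in these r values was not tested. These correlations describe 8 libraries that fall into 2 treatments, and the genes of a pair share each library and its scaling.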

How the data were processed

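RNA was measured in 8 libraries of NKM-1 cells. Total RNA was depleted of ribosomal RNA with RNase H, per the labels' protocols, then randomly primed with the second strand marked by dUTP. Per the submitters' processing notes, the tools were CASAVA 1.8.2, STAR, Salmon and edgeR and the build was GRCh38, in roles not given. The authors deposited a signal per gene whose file labels use both CPM and TPM. Some columns sum to more than either can, so the values were treated as a signal, although the plan had assumed TPM, and the same test was used. Whether they are scaled for length is unknown. The scaling, the gene filter and the depth are not given in the sources used here, so neither counting intervals nor detection floors could be computed.

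SF153 was compared with DMSO in limma 3.58.1 (R 4.3.3) with an intensity trend, on log2(signal + 1), for 15542 genes with a mean of at least 1. P-values were adjusted over all of them by Benjamini-Hochberg at 0.05. Fold changes on this scale understate changes of low genes. Batch contrasts and the interaction came from a limma fit with a mean per treatment and batch, and 5 ratios from exact permutation tests adjusted over 5. The limma script was tested on simulated data. Positions and transcripts came from GENCODE release 29 (17235 of 17912 identifiers matched); the files use a newer annotation. Stretches of 31 bases of each gene's transcript with the longest coding sequence were looked up in all other transcripts.

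The members, the partner list, the ratios and the naming rule (all members; of the partners SF3B1 and the 3 called ones with the largest difference in each direction; 3 similar genes for each of the 3 most changed members) were chosen with earlier results of these data known. The labels give each library a batch number, which pairs the treatments by batch. Deviations of same-batch libraries from their treatment means had r of -0.0041 to 0.059 across genes. No libraries were left out. Alternatives covered pseudocount, filter, scaling, variance model, batch, averaging, the copy and each library left out.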

Additional observations from a re-analysis of the deposited data

Results flagged for a closer look

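Among 78 groups of 4 libraries examined, 4 had a library far from the other 3, and chance gives about 1 in 20 groups. All 4 are relative values. SF153 2.2 stood apart in the share of U2AF2 among the 10 genes, at 7.31% against 8.61% to 8.74% in the other SF153 libraries, and at 7.30% when the copy of U2AF1 was included. The same library had the highest ratio of U2AF1 to U2AF2 of its treatment, at 1.24 against 0.98 to 1.02. It is the library with the lowest U2AF2 signal. DMSO 1.1 stood apart in the share of RBM39, at 35.8% against 34.2% to 34.3%, and is the DMSO library in which the copy of U2AF1 was highest. With the copy included, its share of RBM39 was 33.8%, within 33.3% to 34.2% in the other DMSO libraries.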

How the results depend on the processing

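HTATSF1 kept its direction and call under every alternative run, and U2AF1 summed with its copy under every one run for that sum. The depth is unknown, so its limit on these values cannot be given. The number of the 10 genes called higher was 0 with a pseudocount of 5, no filter, no intensity trend, libraries averaged by treatment and batch, or batch 1 alone, 3 after quantile normalization, 5 without mitochondrial and small RNA genes and 4 with the length and mean signal trend removed. The number called lower was 2 after quantile normalization and in batch 2 alone, and 1 with either of the last adjustments (small RNA and mitochondrial genes removed, or the trend removed). With 1 library left out, 0 to 1 were called higher and 3 to 4 lower. Over all genes, those fits called 1551 to 1797 higher and 3291 to 3619 lower of 15501 to 15577 tested. With all 8 libraries 2015 of 15542 were called higher and 3770 lower. Averaging left 910 and 2519, batch 1 alone 1153 and 2712, and batch 2 alone 1193 and 2987. A pseudocount of 5 gave 2024 and 3777, no trend 1951 and 3661, and no filter 1986 and 3724 of 17866. Shares of all genes after the adjustments are given above. The cause of these changes was not tested.

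Differences near 0 changed sign. After median-of-ratios scaling they were 0.079 for U2AF2 and 0.055 for RBM23. After quantile normalization they were 0.17 for U2AF2, 0.17 for RBM23 and 0.70 for SF1. Without mitochondrial and small RNA genes they were 0.34, 0.31 and 0.24, with 0.073 for RBM17. With the trend removed they were 0.28, 0.042 and 0.27. Batch 1 alone gave 0.063 for U2AF2 and 0.21 for RBM23, and batch 2 alone -0.10 for ZRSR2. Leaving out 1 library gave -0.044 to 0.039 for U2AF2, -0.0036 to 0.22 for ZRSR2 and -0.071 to 0.051 for RBM23. The interaction of HTATSF1 was 0.029 with a pseudocount of 5, and that of SF1 0.31 after quantile normalization, neither called. With the copy summed, the log2 ratio of U2AF1 to U2AF2 was -0.67 and that of U2AF1L4 to U2AF1 1.03, with adjusted exact permutation p-values of 0.0476. The second adjusted value changed through the number of ratios at the smallest p, not through its own p. With batch as a replicate block, for samples paired by batch, 1 gene was called higher and 4 lower, and no call of the 10 genes changed.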
